A study of Homo sapiens with 14 samples.

Results

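The Notch receptors, ligands and target genes were read out of an RNA-Seq table of MDA-MB-231 cells, an established triple-negative breast cancer line, and of 6 lines edited from it with CRISPR/Cas9. The 10 genes were taken by symbol from the 19410 genes of the table, by a rule that uses no measured value, although the list was drawn up with earlier results of these data known. They are the receptors NOTCH1, NOTCH2, NOTCH3 and NOTCH4, the ligands JAG1, JAG2 and DLL1, and the targets HES1, HES4 and HEY1. The groups were parental cells, SAP30-KO1 and SAP30-KO2, SIN3A+SIN3B-DKO1 and SIN3A+SIN3B-DKO2, and the lines MLL1-KO1 and MLL1-KO2. Each had 2 libraries, 14 in all. All cells were grown untreated in DMEM with serum. SAP30 and the paralogs SIN3A and SIN3B are subunits of the SIN3 complex, best known as a histone deacetylase corepressor, and MLL1 (KMT2A) is a histone H3K4 methyltransferase. The study asked which genes need SAP30, the SIN3 proteins and MLL1 for their expression.

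The limits of these lines as a model bear on every comparison. Each edited line came from cells that received Cas9 and sgRNA vectors and puromycin, and verified knockout cells were amplified and mixed. SAP30 and MLL1 were each cut with separate sgRNAs for KO1 and KO2. All 6 lines were compared with the same 2 parental libraries, which are unedited cells and not cells with a control sgRNA. Effects of editing, selection and clonal growth therefore cannot be told apart from those of the missing proteins in any comparison with parental. The labels do not say that the 2 libraries of a line came from separate cultures, so p-values measure the spread between libraries, which may be technical.

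Notch receptors are single-pass membrane proteins that are activated by a ligand on a neighbouring cell. FURIN cuts the receptor on its way to the surface, ligand binding exposes it to ADAM10, and γ-secretase then releases an intracellular domain that joins the DNA-binding protein RBPJ and a Mastermind coactivator in the nucleus. HES and HEY genes, which encode bHLH transcriptional repressors, are the best known targets. In triple-negative breast cancer, NOTCH1 and JAG1 are known for roles in growth and invasion.

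Libraries held 18415036 to 23162682 reads recovered from the table, and no library stood out by depth. SAP30 RNA was 78.9 and 82.8 TPM (a level corrected for gene length and library total) in parental cells and 2.75 to 4.96 in the SAP30-KO libraries. SIN3B was lower in both lines labelled SIN3A+SIN3B-DKO, with log2 fold changes of -0.61 and -0.71, whereas SIN3A RNA was not lower, at 55.1 to 62.5 TPM against 43.1 and 45.4 in parental cells, so RNA does not check that edit. MLL1 RNA fell by 1.64 and 0.97 on the log2 scale in the MLL1-KO1 and the MLL1-KO2 line, and also by 0.95 and 0.65 for SAP30-KO1 and SAP30-KO2. The line's mesenchymal markers were high, with VIM at 5741 to 8805 TPM, ESR1 and PGR did not exceed 0.191 TPM, CDH1 did not exceed 1.25 TPM, and GATA3 was 8.16 to 17.3 TPM. Of the markers of other cell types, HBB had no read in any library, CD3E, CDH5 and DCN did not exceed 0.0802 TPM, and PTPRC and VWF did not exceed 0.603, while PECAM1, COL1A1 and PDGFRB lay between 0.786 and 13.2 TPM.

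A gene was tested with limma on log2(TPM + 0.5) if it had at least 1 TPM in at least 2 libraries, and was called if its Benjamini-Hochberg adjusted p over the 13540 genes tested was under 0.05 and its change was at least 1.5-fold. Fold changes on this scale understate the change of low genes. Of the 10 genes, 8 passed the filter and NOTCH4 and DLL1 did not. NOTCH3 and JAG2 passed only through the parental libraries, so a call of these genes was bound to be in the lower direction. NOTCH1 lies on chromosome 9 (GRCh37, chr9:139388885-139440500, minus strand), NOTCH2 at chr1:120454176-120643366, NOTCH3 at chr19:15269849-15311806 and NOTCH4 at chr6:32162620-32191844, all on the minus strand. The ligand genes JAG1 (chr20:10618332-10654647), JAG2 (chr14:105607319-105635161) and DLL1 (chr6:170591294-170615653) are also on the minus strand. All 10 genes are annotated as protein coding.

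**Figure D1:**
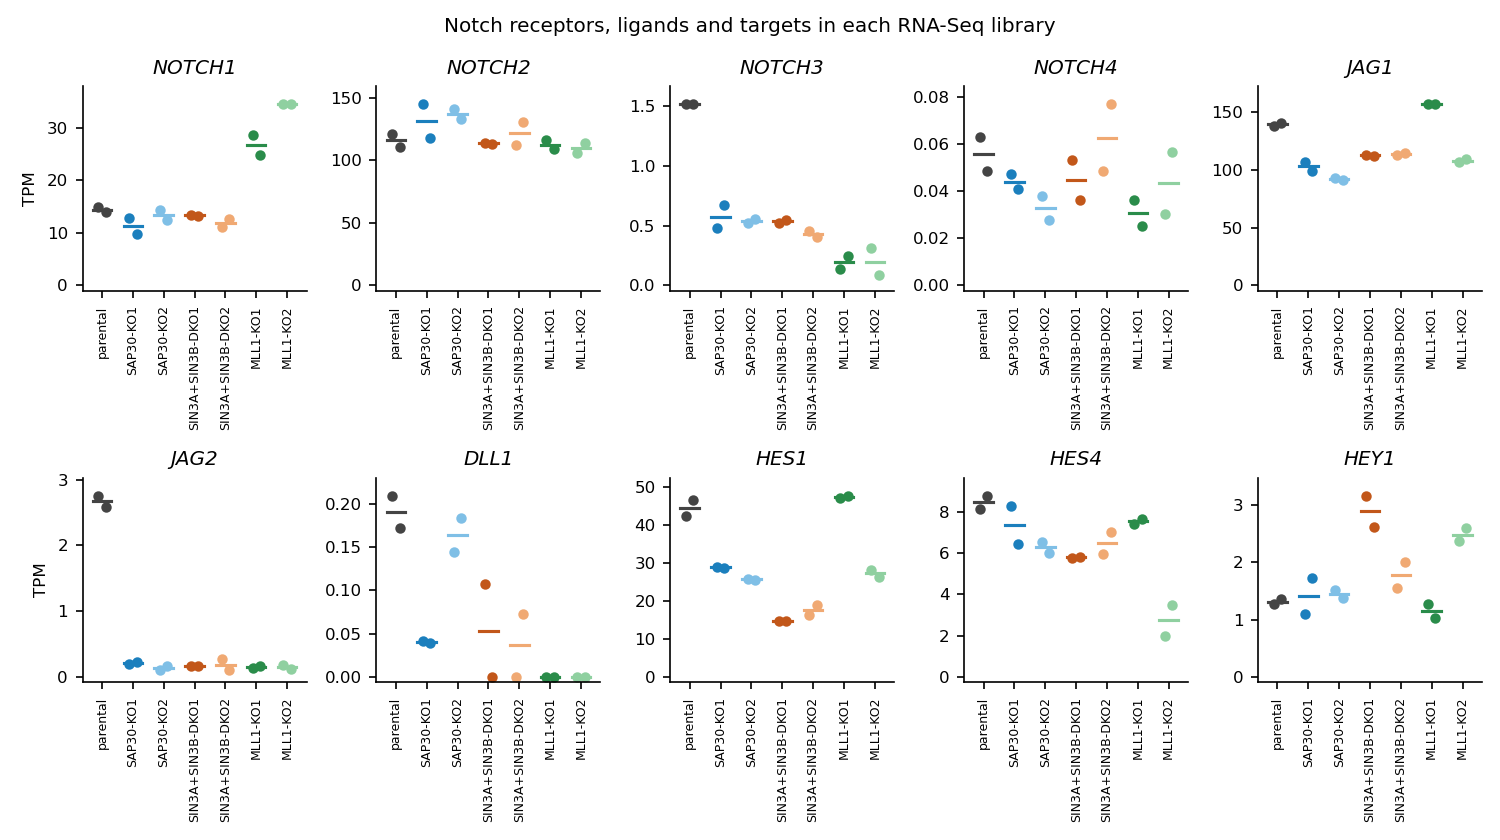
Level in TPM (y axis, linear, a separate scale for each gene) of the 10 genes in each of the 14 libraries, grouped by line on the x axis. Points are single libraries and horizontal bars are means of the 2 libraries. NOTCH3 and JAG2 were below both parental libraries in all 12 edited libraries, and NOTCH1 was above them in the 4 MLL1-KO libraries.

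NOTCH2 and JAG1 were the main receptor and ligand by level in every library. NOTCH2 had a median of 115 TPM over the 14 libraries, with a range of 106 to 145. JAG1 had a median of 113 TPM and a range of 90.8 to 157. NOTCH1 followed with a median of 13.7 TPM and a range of 9.68 to 34.5. HES1 was the highest target, with a median of 27.2 TPM, above HES4 at 6.5 and HEY1 at 1.53. NOTCH3, JAG2, DLL1 and NOTCH4 had medians under 1 TPM. Within these groups of genes the ranges of NOTCH1 and NOTCH2 did not meet, nor did those of JAG1 and JAG2 or of HES1 and HES4, while HES4 at its lowest (1.99 TPM, MLL1-KO2) was under HEY1 at its highest (3.17 TPM).

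NOTCH1 was called higher in both MLL1-KO lines and called in no other line. It was at 14.9 and 13.9 TPM in parental cells, 12.8 and 9.68 for SAP30-KO1, 14.4 and 12.5 for SAP30-KO2, 13.4 and 13.2 for SIN3A+SIN3B-DKO1, and 11.1 and 12.6 for SIN3A+SIN3B-DKO2. It stood at 28.6 and 24.8 TPM in MLL1-KO1 and at 34.5 in each MLL1-KO2 library. All 4 MLL1-KO libraries lay above the other 10, with no overlap. The means were 14.4 ± 0.686 TPM in parental cells (SD, n = 2), 26.7 ± 2.7 for MLL1-KO1 and 34.5 ± 0.0603 for MLL1-KO2. The log2 fold change was 0.87 (SE 0.12, adjusted p = 0.00011 in limma) in MLL1-KO1 and 1.23 (SE 0.12, adjusted p = 6e-06) in MLL1-KO2. In the SAP30-KO and SIN3A+SIN3B-DKO lines it was -0.35 to -0.10, and none was called. Tested directly, NOTCH1 was higher in the MLL1-KO lines than in the SAP30-KO lines by 1.28 (95% interval 1.08 to 1.47) and than in the SIN3A+SIN3B-DKO lines by 1.24 (1.05 to 1.43). The MLL1-KO1 line was 0.37 below MLL1-KO2 (interval -0.64 to -0.10, adjusted p = 0.033 in limma), which missed the fold minimum.

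NOTCH2 was called in no line. Its levels were 121 and 111 TPM in parental cells, 145 and 118 for SAP30-KO1, 141 and 133 for SAP30-KO2, 114 and 113 for SIN3A+SIN3B-DKO1, 112 and 131 for SIN3A+SIN3B-DKO2, 116 and 109 for MLL1-KO1, and 106 and 114 for MLL1-KO2. Both SAP30-KO2 libraries were above the parental pair, while the other edited lines overlapped it. All 4 SAP30-KO libraries were above those of SIN3A+SIN3B-DKO1 and of both MLL1-KO lines. Log2 fold changes ran from -0.08 to 0.25, with 95% intervals within -0.29 to 0.46. The genes around NOTCH2 on the chromosome, a window of 51, had a median of 0.30 for SAP30-KO1 and 0.23 for SAP30-KO2. NOTCH2NL, a near copy of its first exons, was at 10.7 to 16.6 TPM, and reads could have been divided between both.

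NOTCH3 was lower in all 6 edited lines. The study had picked this gene from these same libraries, so its direction in the SAP30-KO and SIN3A+SIN3B-DKO lines is not independent evidence. By RT-qPCR the study also reported less NOTCH3 RNA in MDA-MB-231 cells without SAP30 or without both SIN3 proteins. It reported the same for SAP30 knockout in another breast cancer line. Parental libraries had 88 and 86 reads, the SAP30-KO libraries 28 to 42, the SIN3A+SIN3B-DKO libraries 27 to 36, MLL1-KO1 9 and 16, and MLL1-KO2 17 and 5. Every edited library was below both parental libraries, and all 4 MLL1-KO libraries were below the 8 other edited ones. Log2 fold changes were -0.91 and -0.96 for SAP30-KO1 and SAP30-KO2, -0.96 and -1.12 for SIN3A+SIN3B-DKO1 and SIN3A+SIN3B-DKO2, and -1.55 in both MLL1-KO lines (SE 0.20), with adjusted p from 5e-05 to 0.0031 in limma. In TPM, parental cells held 2.63 to 3.52 times the level of the SAP30-KO and SIN3A+SIN3B-DKO lines and 7.92 and 7.65 times that of MLL1-KO1 and MLL1-KO2.

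The lower NOTCH3 in the MLL1-KO lines was not firmly set apart from that in the others. The direct difference was -0.61 against the SAP30-KO lines (interval -0.93 to -0.30, adjusted p = 0.0027 in limma), which was called, and -0.51 against the SIN3A+SIN3B-DKO lines (-0.83 to -0.20, adjusted p = 0.0081), which missed the fold minimum. The call against SAP30-KO was lost with a pseudocount of 1, at -0.38, with quantile normalization, at -0.07, and with median ratio scaling, at -0.58. It was also lost without SAP30-KO1 replicate 2, at -0.55, without MLL1-KO1 replicate 1, at -0.56, and without MLL1-KO2 replicate 2, at -0.50.

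NOTCH4 was covered by 9 to 28 reads per library and was not tested. Its TPM was 0.0629 and 0.0484 in parental cells and 0.0253 to 0.0768 over all libraries. Both libraries of SAP30-KO1, SAP30-KO2 and MLL1-KO1 were below the parental pair, and the other lines overlapped it. From the worth of 1 read, the table used a length for NOTCH4 of 5.48 times that of NOTCH3, although its longest GENCODE transcript is 0.78 times as long. Its TPM therefore stands too low beside the other receptors, by 7.05 times if that transcript is the right length.

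**Figure D2:**
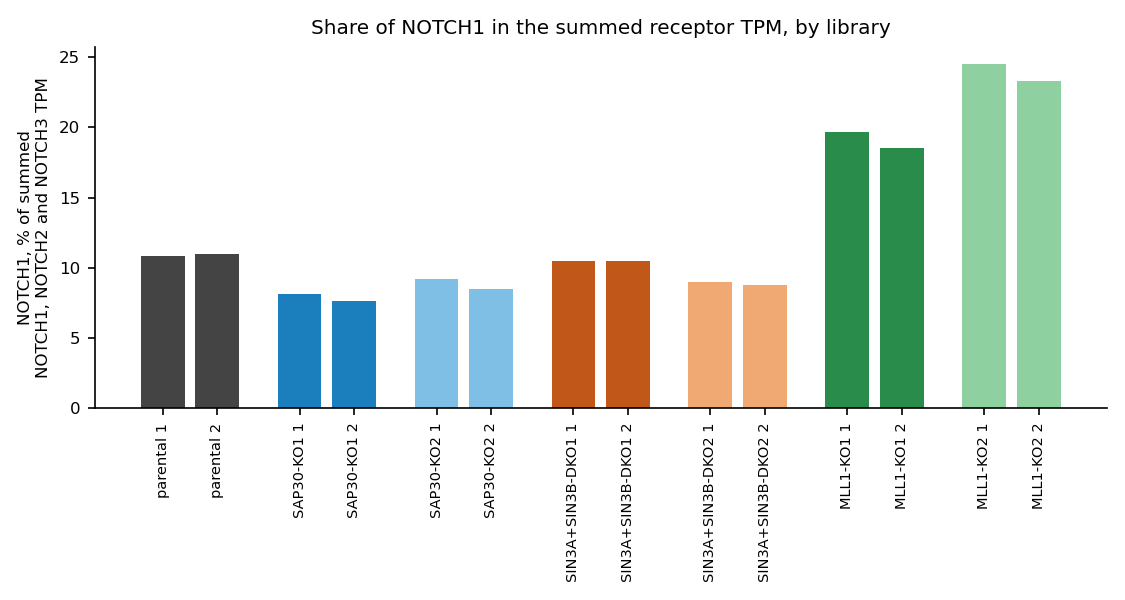
NOTCH1 as a percentage of the summed TPM of NOTCH1, NOTCH2 and NOTCH3 (y axis, from 0) in each of the 14 libraries (x axis, 1 bar per library). The share was 18.5% to 24.5% in the 4 MLL1-KO libraries and 7.6% to 11.0% in the other 10.

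The summed TPM of the NOTCH1, NOTCH2 and NOTCH3 genes was 124 to 158 over the libraries, and its make-up moved with NOTCH1. NOTCH1 took 10.8% and 11.0% of this sum in parental cells, 7.6% to 9.2% in the SAP30-KO lines and 8.8% to 10.5% in the SIN3A+SIN3B-DKO lines. The share was 19.7% and 18.5% for MLL1-KO1, and 24.5% and 23.3% for MLL1-KO2.

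JAG2, which encodes a Jagged ligand, was the most reduced of the 8 tested genes in every line by fold change. It was at 2.76 and 2.59 TPM in parental cells, from 116 and 106 reads. It stood at 0.191 and 0.221 TPM for SAP30-KO1, 0.103 and 0.167 for SAP30-KO2, 0.161 and 0.169 for SIN3A+SIN3B-DKO1, 0.265 and 0.104 for SIN3A+SIN3B-DKO2, 0.126 and 0.171 for MLL1-KO1, and 0.177 and 0.119 for MLL1-KO2. The 12 edited libraries held 5 to 13 reads each and overlapped among themselves, far from the parental pair. Log2 fold changes were -2.17 and -2.33 for SAP30-KO1 and SAP30-KO2, -2.26 and -2.23 for SIN3A+SIN3B-DKO1 and SIN3A+SIN3B-DKO2, and -2.29 and -2.30 for MLL1-KO1 and MLL1-KO2 (SE 0.19, adjusted p from 1.5e-06 to 4.8e-06 in limma). In TPM, parental cells held 13 to 19.9 times the level of an edited line.

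No difference in JAG2 between edited genotypes was detectable at this depth. SAP30-KO and SIN3A+SIN3B-DKO lines differed by -0.01 (interval -0.31 to 0.29), and the MLL1-KO lines differed from each by -0.05 (-0.35 to 0.25), values that became 0.41 and 0.27 with quantile normalization. All 6 lines share the parental libraries as their reference, so the same 2 libraries set all 6 values. Over the alternatives the log2 fold change of JAG2 ran from -4.23 to -1.61, because the added 0.5 weighs heavily on so few reads, and the call was kept in each.

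JAG1, the other Jagged ligand and the abundant one, lay below parental cells in 5 lines and was called in 1 of them. It was at 138 and 141 TPM in parental cells, 107 and 99.1 for SAP30-KO1, 92.8 and 90.8 for SAP30-KO2, 113 and 112 for SIN3A+SIN3B-DKO1, 113 and 115 for SIN3A+SIN3B-DKO2, 157 in each MLL1-KO1 library, and 107 and 109 for MLL1-KO2. Both libraries of every edited line were on one side of the parental pair, above it only in MLL1-KO1. SAP30-KO2 alone passed the fold minimum, with a log2 fold change of -0.60 (SE 0.04, adjusted p = 3.1e-07 in limma). The others were -0.44 for SAP30-KO1, -0.31 and -0.29 for SIN3A+SIN3B-DKO1 and SIN3A+SIN3B-DKO2, 0.17 for MLL1-KO1 and -0.37 for MLL1-KO2, with adjusted p from 3.6e-06 to 0.0023 in limma. MLL1-KO1 was above MLL1-KO2 by 0.54 (interval 0.45 to 0.62), short of the fold minimum. JAG1 made up 97.9% and 98.1% of the summed TPM of JAG1, JAG2 and DLL1 in parental cells and 99.6% to 99.9% in the edited lines.

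DLL1, a Delta-like ligand, had 5 and 4 reads in the parental libraries, 1 in each SAP30-KO1 library, 4 and 5 for SAP30-KO2, 3 and 0 for SIN3A+SIN3B-DKO1, 0 and 2 for SIN3A+SIN3B-DKO2, and 0 in all 4 MLL1-KO libraries. A count of 0 allows up to 3 reads by counting error alone. These levels were too low for the test, and SAP30-KO2 overlapped parental cells.

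The targets HES1 and HES4 are described with their promoters, because both carry the paired arrangement of RBPJ sites that is known for dimers of the Notch complex. HES1 lies at chr3:193853937-193856521 on the plus strand and HES4 at chr1:934342-935552 on the minus strand. Promoter sequence, 250 bases before to 50 bases after the start, was taken from RefSeq (GRCh38.p14) and placed on GRCh37 by exact match. It was given for 8 of the 10 genes, without DLL1 and HEY1. The core GTGNGAA was searched on both strands, and a pair was counted when 2 cores faced each other with 10 to 25 bases between them. The core stood in 4837 of 35116 promoters (13.8%) and a facing pair in 21 (0.0598%). HES1 and HES4 each held 1 facing pair with 16 bases between the cores, and the promoters of NOTCH1, NOTCH2, NOTCH3, NOTCH4, JAG1 and JAG2 held no core in this window. The stretches below run 5′ to 3′ on each gene's own strand, at chr3:193853832-193853881 (plus strand) for HES1 and chr1:935525-935574 (minus strand) for HES4, with the facing cores in capitals. The HES4 stretch runs past the GENCODE start of the gene at 935552.
HES1: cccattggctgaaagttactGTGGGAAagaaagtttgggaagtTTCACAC
HES4: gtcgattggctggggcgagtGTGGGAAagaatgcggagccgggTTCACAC
The stretches share 27 of 50 positions when set base on base. The bases between the second core and the RefSeq start number 55 in HES1 and 47 in HES4. All 8 promoters had a GC content above the median of all promoters, 58.7%, and 7 of 8 had more than the median of 14 CpG sites.

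HES1 was lower in 5 of the 6 lines and lowest in the SIN3A+SIN3B-DKO lines. It was at 42.4 and 46.7 TPM in parental cells, 28.9 and 28.8 for SAP30-KO1, 25.8 and 25.6 for SAP30-KO2, 14.7 and 14.8 for SIN3A+SIN3B-DKO1, and 16.3 and 19.0 for SIN3A+SIN3B-DKO2. It was at 47.1 and 47.8 TPM in MLL1-KO1 but at 28.3 and 26.2 for MLL1-KO2. The SIN3A+SIN3B-DKO libraries did not overlap any other group, and MLL1-KO1 was above both parental libraries. Log2 fold changes were -0.62 for SAP30-KO1, -0.78 for SAP30-KO2, -1.56 for SIN3A+SIN3B-DKO1, -1.31 for SIN3A+SIN3B-DKO2 and -0.70 for MLL1-KO2 (SE 0.07, adjusted p from 5.4e-08 to 3.5e-05 in limma). MLL1-KO1 gave 0.09 (interval -0.07 to 0.25). The SAP30-KO1 call was lost without parental replicate 2, at -0.55, and the MLL1-KO2 call when the median of neighbouring genes was subtracted, at -0.51.

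Directly compared, HES1 was higher in the SAP30-KO than in the SIN3A+SIN3B-DKO lines by 0.74 (interval 0.63 to 0.85, adjusted p = 7.5e-07 in limma). It was higher in MLL1-KO1 than in MLL1-KO2 by 0.79 (0.63 to 0.95, adjusted p = 9.5e-06). The mean of the MLL1-KO lines exceeded that of the SIN3A+SIN3B-DKO lines by 1.13 (1.02 to 1.25) and was 0.39 above the SAP30-KO lines (0.28 to 0.51), which missed the fold minimum. Because the MLL1-KO lines differed from each other, these means stand for neither line.

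HES4 was called only in MLL1-KO2. It was at 8.16 and 8.79 TPM in parental cells and at 1.99 and 3.48 for MLL1-KO2, from 14 and 26 reads against 61 and 64. The SAP30-KO libraries held 5.99 to 8.29 TPM, the SIN3A+SIN3B-DKO libraries 5.77 to 7.0, and the MLL1-KO1 libraries 7.43 and 7.66. MLL1-KO2 lay below all other libraries, and among the rest 1 SAP30-KO1 library overlapped parental cells. The log2 fold change was -1.51 for MLL1-KO2 (SE 0.19, adjusted p = 3.6e-05 in limma) and -0.51 to -0.16 in the others. MLL1-KO1 exceeded MLL1-KO2 by 1.35 (interval 0.94 to 1.77).

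HEY1, on the minus strand at chr8:80674606-80680092, was called higher in SIN3A+SIN3B-DKO1 and MLL1-KO2. It was at 1.27 and 1.36 TPM in parental cells, 1.09 and 1.73 for SAP30-KO1, 1.51 and 1.38 for SAP30-KO2, 3.17 and 2.62 for SIN3A+SIN3B-DKO1, 1.55 and 2.0 for SIN3A+SIN3B-DKO2, 1.28 and 1.03 for MLL1-KO1, and 2.37 and 2.60 for MLL1-KO2. SIN3A+SIN3B-DKO1 and MLL1-KO2 lay above all other libraries. Log2 fold changes were 0.90 for SIN3A+SIN3B-DKO1 (SE 0.18, adjusted p = 0.0017 in limma) and 0.72 for MLL1-KO2 (adjusted p = 0.0054). SIN3A+SIN3B-DKO1 and SIN3A+SIN3B-DKO2 differed by 0.58 (interval 0.18 to 0.99, adjusted p = 0.063 in limma), and MLL1-KO1 was below MLL1-KO2 by 0.86 (interval -1.26 to -0.45). HEY1 rests on 18 to 62 reads per library, and its neighbouring genes had medians of -0.39 and -0.34 for MLL1-KO1 and MLL1-KO2.

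**Figure D3:**
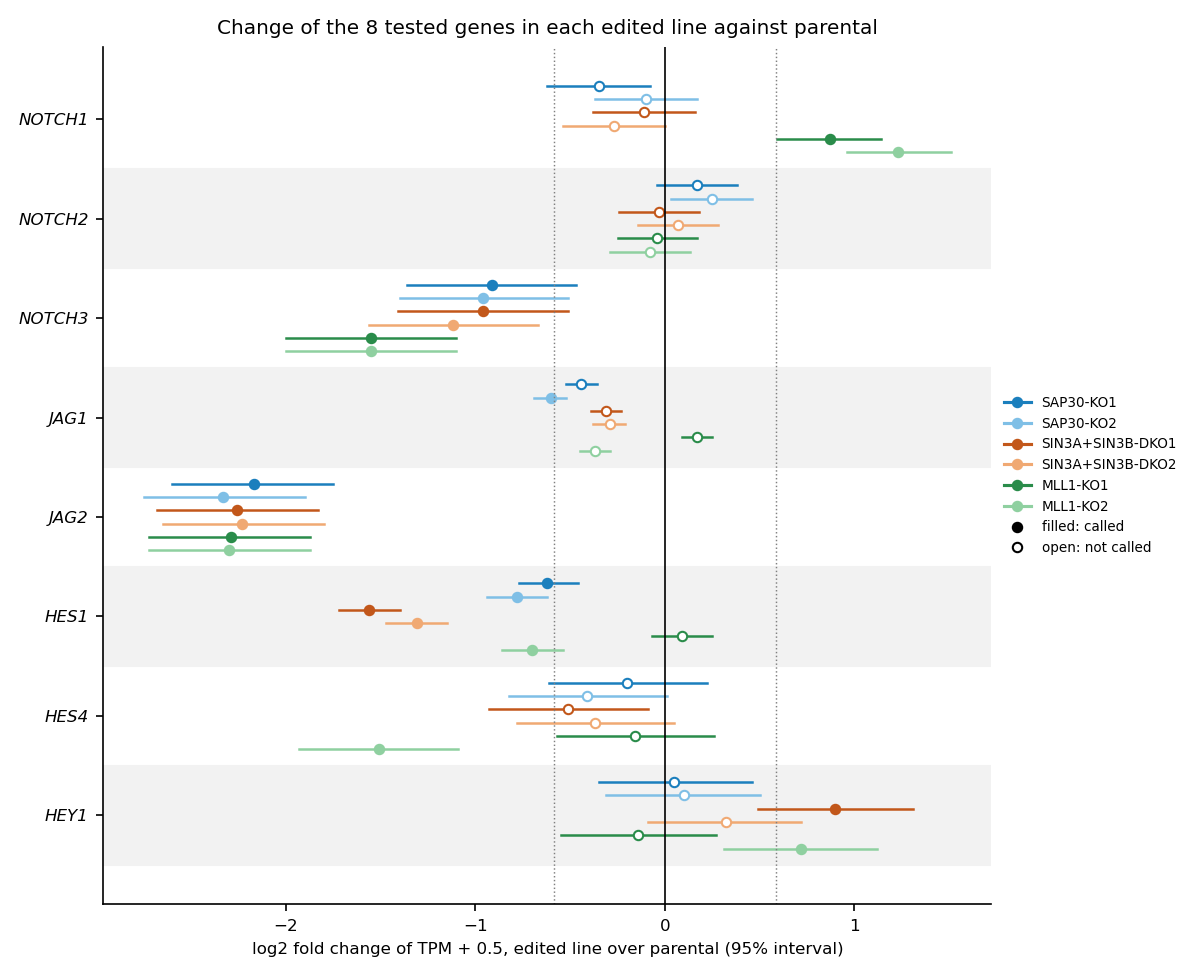
Log2 fold change of TPM + 0.5 over parental (x axis) of the 8 tested genes (y axis) in each edited line, with 95% intervals from limma. Filled points were called, open points were not, and dotted lines mark 1.5-fold. NOTCH3 and JAG2, which could only be called lower, were called in 6 of 6 lines. HES1 was called lower in 5 of 6, and NOTCH1 higher in both MLL1-KO lines. All 6 comparisons share the same 2 parental libraries, and the share of all genes called in as many lines was not counted.

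Counted by line, SAP30-KO1 had 3 of the 8 tested genes called lower and none higher, where 7.86% of all genes tested were called lower and 7.8% higher. SAP30-KO2 had 4 lower and none higher, beside 8.12% and 7.44% of all genes. For the higher direction, 0 and 1 of the 8 genes had an unadjusted p under 0.05 for SAP30-KO1 and SAP30-KO2, and limma's voom on the recovered reads also called none. SIN3A+SIN3B-DKO1 had 3 lower and 1 higher, beside 8.66% and 7.76%. SIN3A+SIN3B-DKO2 had 3 lower, beside 7.56%, and none higher, beside 6%, with none at an unadjusted p under 0.05 in limma and none called by voom. MLL1-KO1 had 2 lower and 1 higher, beside 16.3% and 6.89%, and MLL1-KO2 had 4 lower and 2 higher, beside 14.9% and 10.2%. In each line 2 of the lower calls are NOTCH3 and JAG2, which could only be called lower. Median log2 fold changes of the 8 genes were -0.53 to -0.09 over the lines, lowest in MLL1-KO2. Over all genes tested the medians were -0.09 to 0.03, and in MLL1-KO1 both medians were -0.09.

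The share of lower among all genes called in the MLL1-KO lines depended on the scaling. It was 70.3% for MLL1-KO1 and 59.3% for MLL1-KO2 in the main test, and 51.6% and 48.4% with quantile normalization, which moved the median of all genes by 0.13 and 0.06 on the log2 scale. All calls of the 8 genes in the MLL1-KO lines were kept with that scaling. For the direct comparisons of the MLL1-KO lines, the share was 68.0% against SAP30-KO, 65.3% against SIN3A+SIN3B-DKO and 68.6% for MLL1-KO1 against MLL1-KO2, and 50.4%, 51.5% and 56.4% with quantile normalization.

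**Figure D4:**
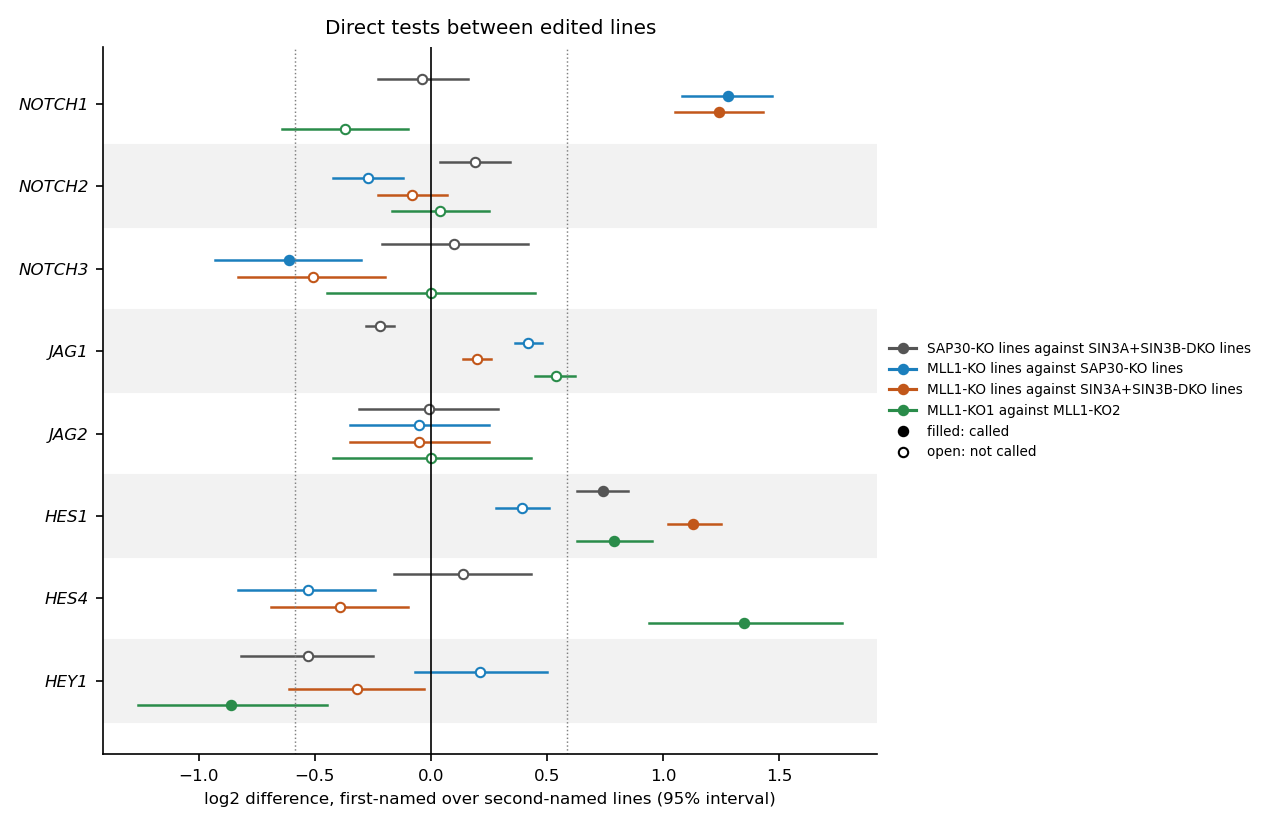
Log2 difference between edited lines (x axis, first-named over second-named) for the 8 tested genes (y axis), with 95% intervals from limma. Filled points were called, open points were not, and dotted lines mark 1.5-fold. HES1 separated SAP30-KO from SIN3A+SIN3B-DKO lines by 0.74, and NOTCH1 separated MLL1-KO lines from both by 1.28 and 1.24.

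Lines of one genotype were also compared with each other. Between SAP30-KO1 and SAP30-KO2 none of the 8 genes was called, where 0.148% of all genes tested were. At an unadjusted p under 0.05 there were 2 in limma (HES1 and JAG1), and voom called none. Between SIN3A+SIN3B-DKO1 and SIN3A+SIN3B-DKO2 none was called, beside 2.23% of all genes, with 2 at an unadjusted p under 0.05 (HES1 and HEY1) and 1 call by voom, HEY1 at 0.72. Between MLL1-KO1 and MLL1-KO2 there were 3 calls, HES1, HES4 and HEY1, beside 10.4% of all genes. These are the 3 targets among the 10 genes, and HES1 and HES4 were higher in MLL1-KO1 while HEY1 was lower. Between genotypes, 1 of the 8 genes was called for SAP30-KO against SIN3A+SIN3B-DKO (7.47% of all genes), 2 for MLL1-KO against SAP30-KO (19.8%), and 2 for MLL1-KO against SIN3A+SIN3B-DKO (19.9%).

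HEY1 also neared a call between genotypes. It was 0.53 lower in the SAP30-KO than in the SIN3A+SIN3B-DKO lines (interval -0.82 to -0.25, adjusted p = 0.0058 in limma), short of the fold minimum, and at -0.68 was called by voom.

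For each gene called in both lines of a genotype, the genes with the most similar pattern over the 14 libraries were listed by Pearson's r on log2(TPM + 0.5). The libraries share groups, so these values describe likeness only. NOTCH1 was most like MICAL3 (r = 0.983), EPHB2 (0.980) and CDKN1C (0.979). NOTCH3 was most like MTDH (0.975), ZNHIT3 (0.968) and RMDN1 (0.962). JAG2 was most like SUSD3 (0.994), ARHGEF16 (0.993) and BAGE4 (0.993). HES1 was most like LOC100506548 (0.961), GFPT2 (0.957) and TMEM163 (0.957). Among the 8 tested genes themselves, JAG2 and NOTCH3 had an r of 0.851. JAG2 and NOTCH3 both passed the filter only through the parental libraries, which favoured a high r between them. The r was -0.705 for HES1 and HEY1, -0.626 for HES4 and HEY1, 0.612 for JAG1 and HES1, and -0.599 for NOTCH1 and NOTCH3.

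The rest of the pathway was taken from a list of 48 genes, of which 47 were in the table and 39 were tested. In SAP30-KO1 and SAP30-KO2 2 were called lower and 3 higher in each, in SIN3A+SIN3B-DKO1 4 lower and in SIN3A+SIN3B-DKO2 6 lower. In MLL1-KO1 8 were lower and 4 higher, and in MLL1-KO2 7 lower and 5 higher. The shares called in either direction were 12.8%, 12.8%, 10.3%, 15.4%, 30.8% and 30.8%, where 15.7%, 15.6%, 16.4%, 13.6%, 23.2% and 25.2% of all genes tested were called. No gene of the list was called higher in limma in the SIN3A+SIN3B-DKO lines, where 9 and 8 were higher at an unadjusted p under 0.05 and voom called 2 and 1. The median of the list was -0.11 to -0.03 over the lines, beside -0.09 to 0.03 for all genes tested. Of its genes, 14 were called in both lines of a genotype. The share of all genes called in both lines of a genotype was not counted.

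**Figure D5:**
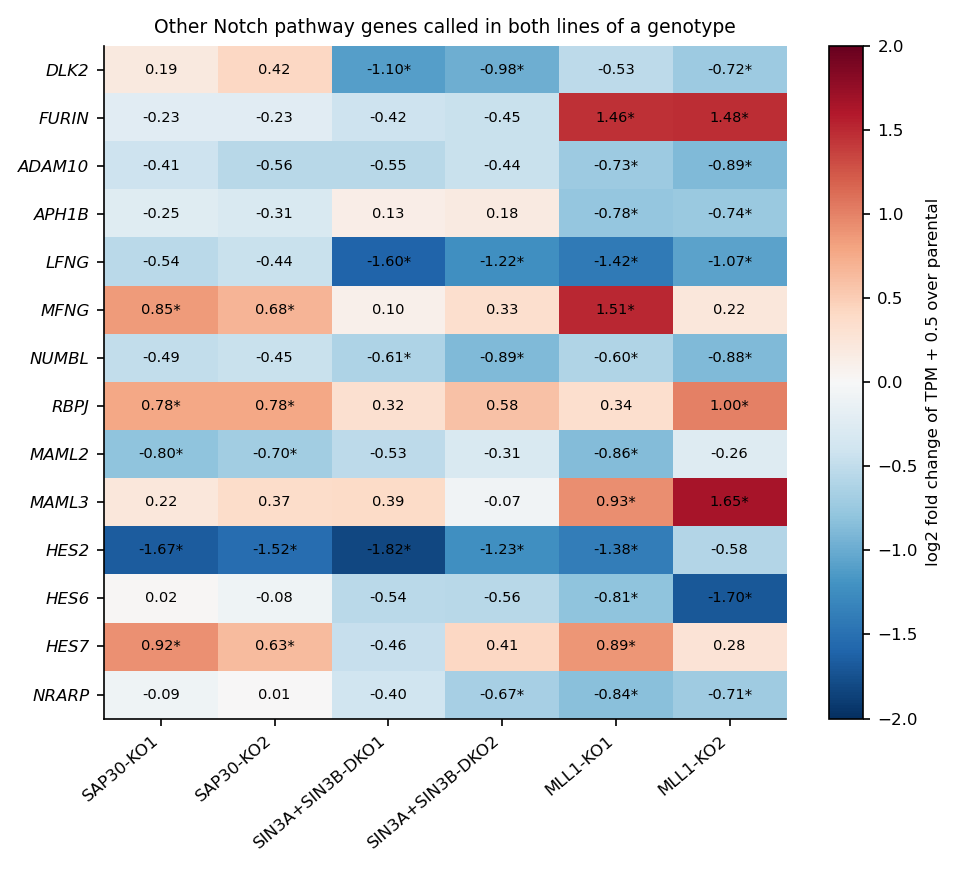
Log2 fold change of TPM + 0.5 over parental (colour, and printed in each cell) of the 14 pathway genes called in both lines of at least 1 genotype (rows) in the 6 edited lines (columns). Asterisks mark calls. FURIN was higher and LFNG lower in both MLL1-KO lines, and HES2 was called lower in 5 lines.

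Among the genes for receptor cleavage, 3 of 9 were named by this rule, all in the MLL1-KO lines. FURIN, the protease that cuts the receptor precursor, was at 35.6 and 35.8 TPM in parental cells, 104 and 94.9 for MLL1-KO1, and 102 and 98.2 for MLL1-KO2. Its log2 fold changes were 1.46 and 1.48 (SE 0.06), and it was at 24.5 to 31.1 TPM in the other edited lines. ADAM10, which cuts the ligand-bound receptor, was at 184 and 186 TPM in parental cells and 95.4 to 112 in the MLL1-KO lines, with -0.73 and -0.89. ADAM10 was also lower in the other edited lines, short of the fold minimum. It was at -0.41 and -0.56 for SAP30-KO1 and SAP30-KO2 and -0.55 and -0.44 for SIN3A+SIN3B-DKO1 and SIN3A+SIN3B-DKO2 (adjusted p from 1.2e-06 to 1.2e-05 in limma). APH1B, a γ-secretase subunit, changed by -0.78 and -0.74, from 13.4 and 13.7 TPM to 7.69 to 7.92. All 3 were outside the parental range in every MLL1-KO library. They had been chosen for being called in both lines, and the share of all genes outside that range was not counted.

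Of the 5 genes for receptor glycosylation, the Fringe gene LFNG encodes a product that modifies the receptor's response to ligands. LFNG was called lower in both SIN3A+SIN3B-DKO and both MLL1-KO lines. It was at 23.8 and 24 TPM in parental cells, 8.96 and 6.38 for SIN3A+SIN3B-DKO1, 9.86 and 10 for SIN3A+SIN3B-DKO2, 9.56 and 7.7 for MLL1-KO1, and 10.5 and 11.8 for MLL1-KO2. The log2 fold changes were -1.60, -1.22, -1.42 and -1.07 (SE 0.13). In SAP30-KO1 and SAP30-KO2 LFNG was also lower, at 16.1 to 17.7 TPM. Its changes there of -0.54 and -0.44 (adjusted p = 0.0064 and 0.018 in limma) missed the fold minimum. Tested directly, it was higher in the SAP30-KO than in the SIN3A+SIN3B-DKO lines by 0.92 (interval 0.71 to 1.13). MFNG, another Fringe gene, passed the filter only through lines where it was high. It was at 0.326 and 0.401 TPM in parental cells, with 0.85 and 0.68 for SAP30-KO1 and SAP30-KO2 and 1.51 for MLL1-KO1. The SAP30-KO1 call of MFNG was lost without parental replicate 1, at 0.79, and without SAP30-KO1 replicate 2, at 0.78. Its SAP30-KO2 call had an adjusted p of 0.045 in limma and was lost on leaving out any of 9 libraries, which were both parental, both SAP30-KO1 and all 4 MLL1-KO libraries and SAP30-KO2 replicate 1, at 0.46 to 0.75.

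Of the nuclear genes, RBPJ, the DNA-binding partner, was at 91.4 and 81.6 TPM in parental cells and 142 to 155 in the SAP30-KO lines, a log2 fold change of 0.78 in both (SE 0.09). It was at 174 and 171 TPM in MLL1-KO2, a change of 1.0 on the log2 scale. In the remaining lines RBPJ was also higher, short of the fold minimum (adjusted p from 0.00024 to 0.0087 in limma). It was at 0.32 and 0.58 for SIN3A+SIN3B-DKO1 and SIN3A+SIN3B-DKO2, where its neighbours had medians of 0.32 and 0.40. MLL1-KO1 was at 0.34, with a neighbour median of -0.22. The SAP30-KO calls were lost when the median of neighbouring genes, 0.43 and 0.37, was subtracted, at 0.35 and 0.41. MAML3, a Mastermind coactivator, was at 6.26 and 6.57 TPM in parental cells, 13 and 12.3 for MLL1-KO1, and 21.3 and 21.1 for MLL1-KO2, with 0.93 and 1.65 (SE 0.07). MAML2, another, was lower at -0.80 and -0.70 in the SAP30-KO lines and -0.86 for MLL1-KO1, where its neighbours had medians of -0.73, -0.80 and -0.89. With the neighbours subtracted, MAML2 was at -0.07, 0.10 and 0.04 and none of the 3 was called. MAML2 was also lower in the remaining lines, short of the fold minimum (adjusted p from 2.8e-05 to 0.0027 in limma). It was at -0.53, -0.31 and -0.26 for SIN3A+SIN3B-DKO1, SIN3A+SIN3B-DKO2 and MLL1-KO2, where its neighbours had medians of -0.32, -0.27 and -0.38.

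The 4 tested genes of the HES, HEY and NRARP group differed in direction. Each was called in some line, and the share of all genes so called was not counted. HES2 was at 1.99 and 1.78 TPM in parental cells and passed the filter mainly through them. It was lower in 5 lines, at -1.67 and -1.52 for SAP30-KO1 and SAP30-KO2, -1.82 and -1.23 for SIN3A+SIN3B-DKO1 and SIN3A+SIN3B-DKO2 and -1.38 for MLL1-KO1, while MLL1-KO2 with 1.21 and 0.98 TPM was at -0.58. HES6 was lower in MLL1-KO1 and MLL1-KO2, at -0.81 and -1.70, from 8.73 and 8.34 TPM to 5.19 and 4.18 and to 2.8 and 1.83. Its neighbours had medians of 0.03 and -0.77, and with these subtracted HES6 was at -0.84 and -0.93 and was called in both. HES6 was also lower in SIN3A+SIN3B-DKO1 and SIN3A+SIN3B-DKO2, short of the fold minimum. It was at -0.54 and -0.56 there (adjusted p = 0.0099 and 0.0086 in limma). NRARP, a negative regulator of Notch that is itself a target, was at -0.84 and -0.71 in the MLL1-KO lines and at -0.67 for SIN3A+SIN3B-DKO2. For SIN3A+SIN3B-DKO1 NRARP was at -0.40 (adjusted p = 0.016 in limma), short of the fold minimum. Both MLL1-KO calls of NRARP were lost with quantile normalization, at -0.51 and -0.49. HES7, which passed the filter only through lines where it was high, was at 0.92 and 0.63 in the SAP30-KO lines and 0.89 for MLL1-KO1, the call in SAP30-KO2 being lost without parental replicate 1, at 0.48, or without either of its own libraries, at 0.56 and 0.70.

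DLK2, a membrane protein related to the Delta ligands, was lower in both SIN3A+SIN3B-DKO lines, from 4.23 and 4.61 TPM to 1.68 and 1.92 and to 2.73 and 1.43, with -1.10 and -0.98. It was at 0.19 and 0.42 in the SAP30-KO lines, and the direct difference was 1.34 (interval 1.02 to 1.67). In MLL1-KO2 it was called at -0.72, a call lost without parental replicate 2, at -0.66, or without MLL1-KO2 replicate 2, at -0.64. In MLL1-KO1 DLK2 was at -0.53 (adjusted p = 0.048 in limma), short of the fold minimum. NUMBL, from the family of Numb proteins that oppose Notch, was at -0.61 and -0.89 for SIN3A+SIN3B-DKO1 and SIN3A+SIN3B-DKO2. It was at -0.60 and -0.88 for MLL1-KO1 and MLL1-KO2. NUMBL was also lower in SAP30-KO1 and SAP30-KO2, at -0.49 and -0.45 (adjusted p = 0.00022 and 0.00043 in limma), short of the fold minimum. Without parental replicate 1 the calls in SIN3A+SIN3B-DKO1 and MLL1-KO1 were lost, at -0.51 and -0.50.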

How the data were processed

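Libraries of mRNA were made by the authors from total RNA with the KAPA mRNA HyperPrep kit and sequenced on a NextSeq 500. The submitters' processing notes name FastQC 0.11.2, TopHat, featureCounts and hg19, and the annotation is not given in the sources used here. The authors deposited 1 value per gene and library and called it RPKM, but the columns all have one and the same sum, so the deposited values were used as TPM. The design had been written for RPKM, and the same test was kept. TPM have a fixed total, so differences in total RNA cannot be seen, and in bulk samples fewer expressing cells and less RNA per cell cannot be told apart. Whole reads could be recovered, using steps among low values, for 18519 of 18519 genes with a value, 100.0% within a tolerance of 0.02 of a read, 18415036 to 23162682 per library. A spreadsheet had made dates of 28 gene names.

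Genes with at least 1 TPM in at least 2 libraries, 13540 in all, were fitted on log2(TPM + 0.5) with limma 3.58.1 in R 4.3.3 (variance trend, 7 group means, 7 residual and 3.6 prior degrees of freedom). Replicates differed by more than sampling noise (chi-square per degree of freedom 1.46 to 7.66) and were counted separately. The value was 7.66 for SIN3A+SIN3B-DKO2 and 3.65 for SAP30-KO1, and 1.46 to 2.20 in the remaining groups. The scripts were tested on simulated data. Named genes are the 10 genes, the pathway genes called in both lines of a genotype, the 3 genes most like each of the 10 so called, and the targeted genes. The members and lists were chosen with earlier results of these data known. Positions use GENCODE on GRCh37, found for 12923 tested genes (95.4%). Neighbours are a running window of 51 genes. Alternatives were pseudocounts 0.1 and 1, no filter, quantile normalization, median ratio scaling, voom on recovered reads, 2-fold and no fold minimum, only the compared libraries, the replicate block, neighbours subtracted, and leaving out each library. Python 3.11.15 with numpy 2.4.6, pandas 2.3.3 and matplotlib 3.10.9 was used for counts and plots.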

Additional observations from a re-analysis of the deposited data

Results flagged for a closer look

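Effects that differed between lines or genotypes by a direct test in limma were singled out, 8 in all. Between the MLL1-KO lines, log2 differences of MLL1-KO1 over MLL1-KO2 were 1.35 for HES4, 0.79 for HES1 and -0.86 for HEY1. Such differences did not hold for every target and were not limited to targets. NRARP, also a target, was at -0.13 and was not called, and the ligand gene JAG1 was at 0.54, short of the fold minimum. Of the 39 pathway genes tested, 6 were called lower and 3 higher in MLL1-KO1 (23.1%), beside 10.4% of all genes. HES1 was higher in the SAP30-KO than in the SIN3A+SIN3B-DKO lines by 0.74, and in the MLL1-KO than in the SIN3A+SIN3B-DKO lines by 1.13. NOTCH1 was higher in the MLL1-KO lines than in the SAP30-KO lines by 1.28 and than in the SIN3A+SIN3B-DKO lines by 1.24. NOTCH3 in the MLL1-KO lines was at -0.61 relative to the SAP30-KO lines. MLL1 RNA itself also differed between the MLL1-KO lines, at 17.4 and 15.8 TPM in MLL1-KO1 and 25.7 and 27.7 for MLL1-KO2, and its part in these differences was not tested.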

How the results depend on the processing

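Of 31 calls of the 10 genes, 28 were kept in all 24 alternatives other than the 2-fold minimum. The exceptions are HES1 for SAP30-KO1 and MLL1-KO2 and NOTCH3 for MLL1-KO against SAP30-KO. Some of these alternatives could hardly end a call. Dropping the fold minimum can only add calls, and leaving out a library outside a comparison changes the estimate of spread but not the fold change. Same-numbered libraries deviated from their group means with a mean correlation of 0.01 over 21 pairs of groups (-0.07 to 0.08), so the replicate numbers do not pair them. The replicate block ended or added no call among 137 single-gene results. It moved counts over all genes slightly, with 2114 in place of 2108 called in SAP30-KO2 against parental. Between SAP30-KO1 and SAP30-KO2, 17 genes in place of 20 were called. With 2 libraries a line and 5 to 13 reads of JAG2 in each edited library, small differences between edited lines were not detectable.

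Without a fold minimum, genes called were 6904, 6997, 7589, 6714, 8188 and 8692 against parental in SAP30-KO1, SAP30-KO2, SIN3A+SIN3B-DKO1, SIN3A+SIN3B-DKO2, MLL1-KO1 and MLL1-KO2, and 799, 800, 821, 704, 1476 and 1603 with a 2-fold minimum, where the main counts were 2120, 2108, 2224, 1837, 3143 and 3408. In the direct comparisons (SAP30-KO1 against SAP30-KO2, the SIN3A+SIN3B-DKO pair, the MLL1-KO pair, SAP30-KO against SIN3A+SIN3B-DKO, MLL1-KO against SAP30-KO and against SIN3A+SIN3B-DKO) they were 71, 1693, 5694, 6584, 9185 and 9185 without a minimum and 6, 111, 428, 288, 1162 and 1198 with 2-fold, where the main counts were 20, 302, 1411, 1012, 2681 and 2695. With only the libraries compared the first 2 of these gave 0 and 54, and with neighbours subtracted the first gave 11. Leaving out each library gave 2 to 26 genes for the SAP30-KO pair.

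Of the 10 genes, those called lower without a fold minimum were 5 for SAP30-KO1 and 5 for SIN3A+SIN3B-DKO1, and 2 were higher in MLL1-KO1. With 2-fold, 1 was lower in SAP30-KO1 and 1 for SAP30-KO2, and 0 were higher in SIN3A+SIN3B-DKO1, 0 for MLL1-KO1 and 1 for MLL1-KO2. In either direction without a minimum there were 1 for the SIN3A+SIN3B-DKO pair, 5 for the MLL1-KO pair, 4 for SAP30-KO against SIN3A+SIN3B-DKO, 6 for MLL1-KO against SAP30-KO and 6 against SIN3A+SIN3B-DKO, and with 2-fold 1 for the MLL1-KO pair, 0 for SAP30-KO against SIN3A+SIN3B-DKO and 1 for MLL1-KO against SAP30-KO. For the SIN3A+SIN3B-DKO pair voom and subtracted neighbours each gave 1. For SAP30-KO against SIN3A+SIN3B-DKO a pseudocount of 0.1, quantile normalization and voom each gave 2 and leaving out a library 1 to 2. For MLL1-KO against SAP30-KO a pseudocount of 1, quantile normalization and median ratio scaling each gave 1 and leaving out a library 1 to 2, with 1 without MLL1-KO1 replicate 1.

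Sign changes were found for 46 values, 44 of them for the 10 genes. In the main test these 44 were uncalled and within 0.27 of 0, and the cause of the changes was not tested. With neighbours subtracted, MAML2 went to 0.10 for SAP30-KO2 and 0.04 for MLL1-KO1, and NOTCH2 to -0.12 for SAP30-KO1, -0.06 for SIN3A+SIN3B-DKO2, 0.06 for MLL1-KO1, 0.07 for MLL1-KO against SAP30-KO and 0.09 against SIN3A+SIN3B-DKO, and HEY1 to 0.25 for MLL1-KO1. Quantile normalization gave JAG2 0.41 for MLL1-KO against SAP30-KO, 0.27 against SIN3A+SIN3B-DKO and -0.02 for the MLL1-KO pair, NOTCH3 -0.07 for SAP30-KO against SIN3A+SIN3B-DKO, and 0.03 for NOTCH2, 0.05 for HES4 and 0.21 for HEY1 for MLL1-KO1. Median ratio scaling gave NOTCH2 0.06 for MLL1-KO1 and 0.01 for MLL1-KO against SIN3A+SIN3B-DKO, and JAG1 0.00 for the SIN3A+SIN3B-DKO pair. Voom gave NOTCH2 0.00 for SIN3A+SIN3B-DKO1 and 0.02 for MLL1-KO1, and a pseudocount of 1 gave NOTCH3 0.00 for the MLL1-KO pair. Leaving out a library changed the sign in 25 cases, with ranges over libraries left out as follows. NOTCH1 was at -0.20 to 0.00 in SAP30-KO2 and -0.13 to 0.06 for SAP30-KO against SIN3A+SIN3B-DKO. NOTCH2 was at -0.10 to 0.03 in SIN3A+SIN3B-DKO1, -0.04 to 0.18 in SIN3A+SIN3B-DKO2, -0.11 to 0.02 in MLL1-KO1, and -0.22 to 0.08, -0.21 to 0.01 and -0.01 to 0.09 in the SAP30-KO, SIN3A+SIN3B-DKO and MLL1-KO pairs. NOTCH3 was at -0.08 to 0.17 in the SAP30-KO pair and -0.23 to 0.23 in the MLL1-KO pair. JAG2 was at -0.20 to 0.14 and -0.06 to 0.07 in the SIN3A+SIN3B-DKO and MLL1-KO pairs, and -0.09 to 0.08 and -0.14 to 0.03 for SAP30-KO and MLL1-KO against SIN3A+SIN3B-DKO. HEY1 was at -0.19 to 0.30 in SAP30-KO1 and -0.29 to 0.20 in the SAP30-KO pair.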
